A study of Mus musculus with 14 samples.

Results

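Rheb1 loss in myeloid cells was described by setting 3 arrays of Rheb1-/- myeloid cells against 3 arrays of wild-type myeloid cells. These were 6 of the 14 samples of the series. All autosomal probes that were not controls were members, 38837 of 41174, and 16660 autosomal genes of 17713 in all were bright enough to be tested. Each sample was the total RNA of mouse cells of the blood system on 1 single-colour Agilent array. The Rheb1-/- mice carried floxed Rheb1 alleles (Rheb1fl/fl) and Vav1-cre, a recombinase driven from a promoter active throughout the blood system, so the gene was removed in all blood cells and not in myeloid cells alone. The controls are labelled wild type, and the labels do not say whether they carried the floxed alleles. Wild-type and Rheb1-/- myeloid progenitors, 3 arrays each, served as the reference for immaturity. No age, pooling or surface marker gate is given by the labels, and no sample is tied to an animal, and the p-values therefore reflect only how these samples vary.

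Rheb, the official symbol of Rheb1, is a small GTPase that switches on the kinase complex mTORC1 on the lysosome, and the TSC complex switches Rheb off. mTORC1 promotes ribosome production, translation, nucleotide and sterol synthesis, and restrains autophagy and the transcription of lysosome genes. In the marrow, myeloid progenitors divide, make ribosomes and fill primary granules, and their progeny then switch to genes of later granules, of mature neutrophils, or of monocytes and macrophages, whose receptors take up particles and dying cells.

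Signal is given as log2 intensity minus the array's 75th percentile, so a value of 0 is the brightness of a probe at that percentile. Between 65.7% and 67.2% of the spots exceeded background clearly on the wild-type myeloid cell arrays, and between 60.8% and 62.3% on the Rheb1-/- arrays. The median probe read -3.50 to -3.44 on the former and -3.72 to -3.64 on the latter, so dim signal differed between the groups. Its part in the falls of dim genes was not tested. No spot was saturated, and the correlation of replicates across genes was 0.988 to 0.991. The number of arrays limits the precision. The 3 wild-type myeloid cell arrays lay on 1 slide and the 3 Rheb1-/- arrays on another, so slide and genotype cannot be told apart. The Rheb1-/- slide also held 1 Rheb1-/- progenitor array, which differed from the other 2 Rheb1-/- progenitor arrays by a median of 0.00 (SD over genes 0.50). That difference is the slide value of a gene. The other 2 arrays did not lie on the slide of the wild-type myeloid cells. The slide value therefore does not measure the 2 slides compared here, and it includes variation between samples. Of the 156 named genes that passed below, the slide value had the direction of the genotype difference and over 50% of its size in 6, each of which is given with it. The samples expressed genes of mature myeloid cells. All 34 measured genes of mature neutrophils were well above background on all 6 arrays, with medians of 5.59 to 5.85 on the 6 arrays against 1.60 to 2.34 on wild-type progenitor arrays. Named after their values were seen, the integrin Itgam averaged 4.70 in wild-type and 4.50 in Rheb1-/- myeloid cells, the alarmin S100a8 9.17 and 8.98, and the granule protein lactoferrin (Ltf) 9.24 and 9.02, and none of the 3 passed the test (limma adjusted p 0.575, 0.476 and 0.560).

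The promoters of 3 genes to which the results return are shown, and for each only a window that held a match. Ctsl rose past and Csrnp1 away from the progenitor level, and Maff by the largest fold toward it among the genes named. Atf3, Nr4a2 and Saa3, which rose past it too, held no match and are not shown. The matches shown are therefore not a trait of the genes that rose. Maff encodes a small Maf protein, Csrnp1 a nuclear protein known as an immediate early gene product, and Ctsl the lysosomal protease cathepsin L. Sequences are from RefSeq (GRCm38.p6), 250 bases before to 50 after a start, read along the gene, with matches in capitals to TGANTCA (AP-1), TGACGTCA (cyclic AMP response element) or CACGTG (E-box), on either strand. The matches shown do not overlap each other, and the 3 motifs are present in 7.81%, 1.79% and 7.15% of 32851 such windows.
Maff, chr15:79347270-79347569, plus strand: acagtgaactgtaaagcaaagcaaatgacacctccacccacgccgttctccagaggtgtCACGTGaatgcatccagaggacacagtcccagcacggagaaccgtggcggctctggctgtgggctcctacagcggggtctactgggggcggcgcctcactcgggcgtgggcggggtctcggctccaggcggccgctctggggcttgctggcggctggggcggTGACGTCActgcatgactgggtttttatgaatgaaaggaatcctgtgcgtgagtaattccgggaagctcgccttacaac
Csrnp1, chr9:119982974-119983273, minus strand: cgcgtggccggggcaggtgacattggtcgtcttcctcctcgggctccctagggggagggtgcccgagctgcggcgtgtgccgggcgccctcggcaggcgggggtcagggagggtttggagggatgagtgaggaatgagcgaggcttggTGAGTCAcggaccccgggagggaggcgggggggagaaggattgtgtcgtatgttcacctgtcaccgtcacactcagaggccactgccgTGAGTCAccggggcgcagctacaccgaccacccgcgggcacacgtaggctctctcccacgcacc
Ctsl, chr13:64370471-64370770, minus strand: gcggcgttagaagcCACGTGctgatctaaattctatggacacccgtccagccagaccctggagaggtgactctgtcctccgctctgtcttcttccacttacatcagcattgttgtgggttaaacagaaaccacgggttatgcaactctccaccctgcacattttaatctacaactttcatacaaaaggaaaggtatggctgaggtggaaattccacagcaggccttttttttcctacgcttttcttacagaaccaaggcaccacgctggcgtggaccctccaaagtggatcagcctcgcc
This Maff window held a cyclic AMP response element 29 bases and an E-box 191 bases before the start, and the other 2 Maff windows held no match. This Csrnp1 window held AP-1 matches 102 and 14 bases before the start, and its other 3 windows held none. The Ctsl window held an E-box 236 bases before the start, and the single windows of Atf3, Nr4a2 and Saa3 held no match. A match describes letters and shows no binding.

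Rheb itself was lower in Rheb1-/- myeloid cells. It read 3.54, 2.93 and 2.80 on the wild-type arrays and 2.15, 2.10 and 2.36 on the Rheb1-/- arrays, so the groups did not overlap, and wild-type array 1 stood highest. The means were 3.09 ± 0.40 and 2.20 ± 0.14 (SD, n = 3 each), a difference of -0.89 ± 0.22 SE (1.85-fold, limma adjusted p = 0.0116). Wild-type progenitors read 3.94, 4.04 and 3.78, above all myeloid cell arrays, and this put Rheb among the genes that moved away from the progenitor level. Rheb1-/- progenitors read 3.26, 2.65 and 2.60, a genotype difference of -1.08 that did not pass (limma adjusted p = 0.0939). The single Rheb probe is placed by the files on the minus strand of mm9 chr5:24308641-24308675, and whether it lies in the deleted part is not stated. The slide value of Rheb was -0.35.

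Of the 16660 autosomal genes, 5711 differed between genotypes in myeloid cells (34.3%), 2733 higher (16.4%) and 2978 lower (17.9%) in Rheb1-/- cells, at a limma adjusted p under 0.05. By at least 2-fold 386 rose (2.32%) and 912 fell (5.47%), and the median over all autosomal genes was -0.09. The 3 and 3 arrays did not overlap in 50.1% of genes. Each gene that passed was then placed by the wild-type progenitors. A gene that moved in the direction in which wild-type progenitors differ from wild-type myeloid cells was counted as moved toward the progenitor level. A gene whose level in Rheb1-/- myeloid cells lay beyond both wild-type myeloid cells and the progenitors of each genotype, in the same direction, was counted as moved past both, and a gene that moved opposite to the progenitors as moved away. These comparisons share the wild-type myeloid cell arrays, so a deviation of those arrays, by chance or by slide, would itself place genes toward the progenitors. No progenitor array lay on the slide of the wild-type myeloid cells. The part of that slide in the placement was not tested. Stages between progenitor and mature cell were not measured.

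Most genes that passed lay toward the progenitor level, 2458 of those that rose (89.9%) and 2261 of those that fell (75.9%). Past both cell types lay 102 that rose and 246 that fell, away from the progenitors 86 and 274, and 87 and 197 could not be placed. The wild-type progenitors differed from wild-type myeloid cells in 77.9% of autosomal genes, 38.9% in each direction. Rheb1-/- myeloid cells differed from wild-type progenitors in 70.0% (31.9% higher, 38.1% lower) and from Rheb1-/- progenitors in 68.7% (29.7% higher, 39.0% lower). Genes lower in Rheb1-/- cells were thus placed past or away in 8.26% and 9.20% of cases, and genes that rose in 3.73% and 3.15%. This split changed with the scaling. Past both cell types lay 144 that rose and 136 that fell with normexp and 123 and 169 with quantile normalization, and away from the progenitors 116 and 156 with normexp and 105 and 183 with quantile normalization. The genes that fell past or away were dim, with median wild-type levels of -2.55 and -2.61, against 0.26 for those that fell toward the progenitors. Leaving out wild-type array 2, wild-type array 3 or Rheb1-/- array 3 reduced the 360 genes placed away to 194, 228 and 238.

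**Figure D1:**
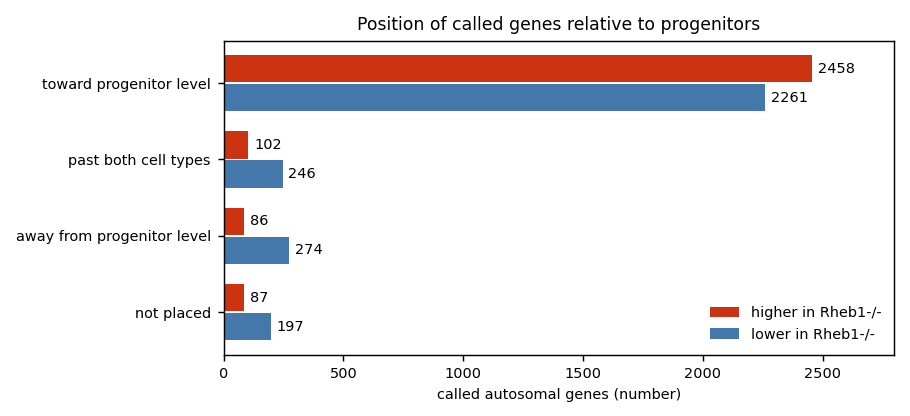
Number of autosomal genes called higher (red) or lower (blue) in Rheb1-/- than in wild-type myeloid cells (x axis), by position relative to wild-type progenitors (y axis). Of the genes called, 2458 and 2261 lay toward the progenitor level and 86 and 274 away from it.

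The 5 largest rises past both cell types were those of Fosl1, Commd10, Saa3, Nnmt and Atf3. Fosl1, a Fos family member of AP-1, read -4.28, -4.42 and -4.15 in wild-type and -1.13, -1.41 and -1.07 in Rheb1-/- myeloid cells. Wild-type progenitors read -4.37, -4.57 and -4.34, like the wild-type myeloid cells, so the 3 Rheb1-/- myeloid arrays stood alone. The rise was 8.47-fold (3.08 ± 0.36 SE, n = 3 per genotype, limma adjusted p = 0.000406), beside a slide value of 1.17. Atf3, a stress-induced factor that pairs with Jun proteins, read 1.94, 1.54 and 1.62 in wild-type and 3.67, 3.59 and 3.71 in Rheb1-/- cells, against 1.47, 1.44 and 0.84 in progenitors. It rose 3.89-fold (1.96 ± 0.27 SE, limma adjusted p = 0.000791, slide value -0.46), with no overlap with any other group. Nr4a2, an orphan nuclear receptor gene, rose by 1.90 from -1.34, -1.46 and -1.53 to 1.04, 0.05 and 0.26 (limma adjusted p = 0.000457), only just above the progenitors, which read 0.10, -0.07 and -0.40. Its place past the progenitors was kept in 12 of 22 alternatives.

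Commd10, a member of the COMMD family, read 0.22, 0.19 and -0.17 in wild-type and 2.47, 2.46 and 2.55 in Rheb1-/- myeloid cells (2.42 ± 0.12 SE, 5.35-fold, limma adjusted p = 2.78e-05). It was also higher in Rheb1-/- progenitors, where it read 1.69, 1.89 and 1.88 against 0.59, 0.46 and 0.68 (1.25, limma adjusted p = 0.00510), so this gene moved with genotype in both cell types. Saa3, an acute phase protein, rose by 2.24 (limma adjusted p = 0.00398), from -3.13, -3.26 and -3.38 to -1.98, -0.08 and -0.99, with Rheb1-/- array 1 nearest to the wild type. Nnmt, which methylates nicotinamide, rose by 2.10 (limma adjusted p = 0.0335), from -4.97, -4.14 and -4.89 to -3.92, -1.66 and -2.12. Its call was lost when wild-type array 1 or 3, or Rheb1-/- array 2 or 3, was left out (limma adjusted p up to 0.114).

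Among the genes that fell past both cell types, Gpd1, which links glycolysis to glycerol lipids, read -1.44, -1.11 and -1.28 in wild-type and -3.33, -4.57 and -4.71 in Rheb1-/- cells (7.60-fold, -2.93 ± 0.30 SE, limma adjusted p = 0.000264). Cd5l, a secreted protein of tissue macrophages, fell 6.40-fold (-2.68 ± 0.26 SE, limma adjusted p = 0.000229), from 0.72, 1.06 and 1.19 to -1.09, -2.09 and -1.88, against -0.59, -0.65 and -0.78 in progenitors. The 3 Rheb1-/- arrays were the lowest of all for Gpd1, and for Cd5l they were below the wild-type progenitors. Ermap, an erythroid membrane protein, fell by 2.39 (limma adjusted p = 0.00600, slide value -1.57), Plaat3, a phospholipase of adipose tissue, by 2.30 (0.000935), and Ablim1, an actin binding protein, by 2.23 (7.28e-05). Ablim1 read -2.33, -2.21 and -2.75 in wild-type and -4.45, -4.73 and -4.78 in Rheb1-/- myeloid cells, while all 6 progenitor arrays lay between -2.94 and -2.65. For Ermap and Dsp, below, the placement held in 16 of 22 alternatives each.

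Genes that rose away from the progenitors are those already higher in wild-type myeloid cells than in wild-type progenitors. Cd14, the lipopolysaccharide co-receptor of monocytes and activated neutrophils, read 4.51, 2.75 and 4.68 in wild-type and 6.32, 5.92 and 6.30 in Rheb1-/- cells (4.58-fold, 2.20 ± 0.46 SE, limma adjusted p = 0.00586), with wild-type array 2 far below the other 2 wild-type arrays. Progenitors read 2.38, 1.32 and 2.38. Csrnp1 rose 2.96-fold (1.56 ± 0.11 SE, limma adjusted p = 9.48e-05), from 3.17, 3.05 and 3.22 to 4.87, 4.65 and 4.62, and all 6 progenitor arrays lay between 2.39 and 2.70. Tgm1, a transglutaminase, rose by 1.74 (limma adjusted p = 0.00173) and Naprt, which makes NAD from nicotinic acid, by 1.46 (0.000557). The metalloreductase gene Steap4 rose by 1.82 (limma adjusted p = 0.0243), a call lost on leaving out wild-type or Rheb1-/- array 2 or 3 (limma adjusted p up to 0.0835). Trem1, an amplifying receptor of neutrophils and monocytes named after its values were seen, rose by 0.98 (limma adjusted p = 0.00408).

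The 5 largest falls away from the progenitors included 2 proteases of basophils. Mcpt8, a basophil protease, read 1.58, 1.86 and 2.04 in wild-type and 0.52, -0.15 and 0.40 in Rheb1-/- myeloid cells (2.97-fold, -1.57 ± 0.27 SE, limma adjusted p = 0.00223), while wild-type progenitors averaged 4.19 ± 0.24 (SD, n = 3). Prss34, another basophil protease, fell by 1.89 (limma adjusted p = 0.0269, slide value -0.95), but 5 of the 6 myeloid cell arrays ended this call when left out, Rheb1-/- array 1 being the exception (limma adjusted p up to 0.0944). The junction gene Dsp fell by 1.70 (limma adjusted p = 0.000978), the desmosomal Perp by 1.63 (0.0478) and Samd14, a gene of erythroid precursors, by 1.55 (0.0116). The call for Perp was lost in 12 of 23 alternatives, among them the omission of any wild-type myeloid cell array, of Rheb1-/- array 2 or 3, or of 4 of the 6 progenitor arrays (limma adjusted p up to 0.159).

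**Figure D2:**
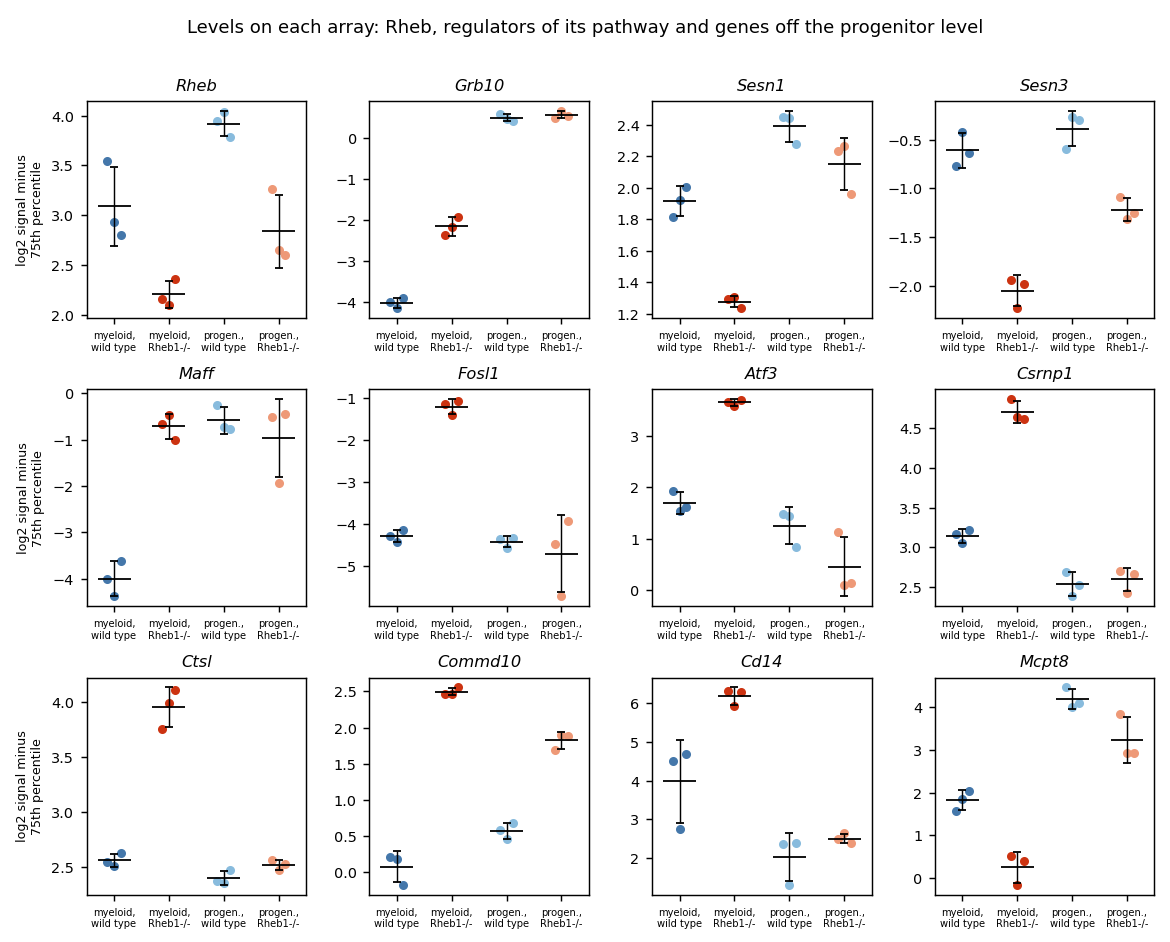
Log2 signal minus the array's 75th percentile (y axis, each panel on its own scale) on every array of the 4 groups (x axis; progen. stands for myeloid progenitors) for 12 genes. Points are arrays, lines are group means and error bars SD (n = 3). Fosl1, Atf3, Ctsl and Csrnp1 stand above the 9 other arrays on all 3 Rheb1-/- myeloid cell arrays.

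Toward the progenitors the largest rise among the genes named was that of Maff. It read -3.99, -4.38 and -3.62 in wild-type and -0.67, -0.46 and -1.01 in Rheb1-/- myeloid cells, and -0.26, -0.73 and -0.77 in progenitors (9.73-fold, 3.28 ± 0.37 SE, limma adjusted p = 0.000376). The difference between Rheb1-/- myeloid cells and wild-type progenitors did not pass (limma adjusted p = 0.771). Clu, the extracellular chaperone clusterin, rose by 3.08 (limma adjusted p = 0.00145), with Rheb1-/- array 1 at -0.92 below the other 2 at 1.40 and 0.92. Ppic, a cyclophilin, rose 5.58-fold (2.48 ± 0.15 SE, limma adjusted p = 7.28e-05), and its 3 Rheb1-/- arrays at 1.04, 1.12 and 1.35 lay between wild-type myeloid cells at -1.61 to -1.12 and wild-type progenitors at 3.15 to 3.31. The myosin light chain gene Myl10 rose by 2.57 (limma adjusted p = 0.0126, slide value 1.87) and Dmkn, a secreted protein known from skin, by 2.41 (0.000550).

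The 5 largest falls toward the progenitors were those of Rec114, Tmem45a2, Dmpk, Lhx1 and Cd209f. Rec114, a meiotic recombination gene, read -0.65, 0.94 and 0.93 in wild-type and -2.50, -4.62 and -3.30 in Rheb1-/- cells (14.7-fold, -3.88 ± 0.58 SE, limma adjusted p = 0.00113), and the mean of its 2 probes gave -1.66. The kinase gene Dmpk fell 10.4-fold (limma adjusted p = 0.000647), the LIM homeobox gene Lhx1 9.95-fold (0.000359) and the C-type lectin gene Cd209f 8.82-fold (0.00234), and Tmem45a2 fell by 3.70 on the log2 scale (0.000359). For Dmpk the wild-type arrays read -0.23, -0.07 and 0.13 and the Rheb1-/- arrays -2.83, -4.57 and -2.90. Rheb1-/- array 2 was the lowest of its group for Rec114, Tmem45a2, Dmpk and Cd209f.

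The growth programme of the progenitors was higher in Rheb1-/- myeloid cells. In each list below, the members called are to be read against 16.4% of all autosomal genes higher and 17.9% lower, and against the median of -0.09 over all of them. Of 75 cytosolic ribosomal protein genes 71 rose and 4 were not called (median 0.72, while wild-type progenitors exceeded wild-type myeloid cells by a median of 0.93). Rps7 read 7.09, 7.13 and 7.03 in wild-type and 8.04, 8.20 and 8.10 in Rheb1-/- cells (1.03 ± 0.09 SE, limma adjusted p = 0.000180), and progenitors read 8.06, 8.30 and 8.13. Rpl31 rose by 0.91. Many ribosomal protein genes have near-identical pseudogenes, so single members of this list are uncertain.

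Of 54 ribosome biogenesis genes 41 rose and 1 fell (median 0.58, progenitors 2.20 higher). The nucleolar proteins Nop58 and Npm1 rose 2.32-fold and 2.28-fold (1.22 ± 0.09 and 1.19 ± 0.10 SE, limma adjusted p = 9.48e-05 and 0.000184), Nop56 by 0.95 and Rrs1 by 1.03. Nop58 read 1.05, 1.11 and 0.91 in wild-type, 2.13, 2.24 and 2.35 in Rheb1-/- cells and 4.14 to 4.16 in progenitors, so Rheb1-/- cells lay between the 2 cell types. Of 40 translation factor and aminoacyl-tRNA synthetase genes 18 rose and 1 fell (median 0.35, progenitors 1.27 higher), with the elongation factor subunits Eef1b2 at 1.11 and Eef1g at 0.75 and the initiation factor subunits Eif3e at 0.77 and Eif3b at 0.67. Of 25 purine and pyrimidine synthesis genes 19 rose and none fell (median 0.50), against per-array medians of 0.90 to 1.05 in wild-type myeloid cells and 2.95 to 3.26 in wild-type progenitors. Among them Ctps rose by 1.01, the uridine kinase Uck2 by 0.99, Cad, which starts pyrimidine synthesis, by 0.90, and Ppat, which starts purine synthesis, by 0.84 (limma adjusted p 0.000210 to 0.000360).

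Genes of DNA replication and mitosis also rose. Of 43 DNA replication genes 41 rose and none fell (median 0.65, progenitors 1.47 higher), among them the licensing factor Cdt1 at 0.97, the helicase subunits Mcm6 at 0.89 and Mcm3 at 0.68, and Uhrf1 at 0.59. Cdt1 read 3.68, 3.73 and 3.53 in wild-type and 4.62, 4.60 and 4.62 in Rheb1-/- cells (limma adjusted p = 0.000246). Of 37 mitosis genes 25 rose and none fell (median 0.48), although progenitors exceeded wild-type myeloid cells by a median of only 0.33. On the 3 Rheb1-/- arrays the median mitosis level was 2.72, 3.03 and 2.79, against 2.81, 2.62 and 2.85 in wild-type progenitors and 1.99 to 2.30 in wild-type myeloid cells. Of the 25, 17 lay toward and 5 past the progenitors. The centromere gene Cenpf rose past them (0.99 ± 0.16 SE, limma adjusted p = 0.00159), a placement kept in 16 of 22 alternatives, as did Mki67, the proliferation marker, named after its values were seen (0.72, limma adjusted p = 0.00282). Ect2 rose by 0.73 and Aurka by 0.75, and for Bub1 the probe used rose by 0.81 while its other probe gave -0.41, so that the mean of both did not pass (limma adjusted p = 0.129).

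Primary granule genes rose while later granule genes fell little. Of 19 primary granule genes 12 rose, none fell, and all 12 lay toward the progenitors (median 0.66, progenitors 1.31 higher). The protease cathepsin G (Ctsg) read 7.34, 7.16 and 6.80 in wild-type and 8.17, 8.72 and 8.55 in Rheb1-/- cells (2.60-fold, 1.38 ± 0.16 SE, limma adjusted p = 0.000456). Nkg7 rose by 1.26, Prss57, a neutrophil protease, by 1.18 and the granule proteoglycan Srgn by 0.82, and, named after their values were seen, neutrophil elastase (Elane) rose by 1.11 and myeloperoxidase (Mpo) by 0.61. Of 28 genes of secondary and tertiary granules 3 fell and none rose (median -0.30), although their median was 4.30 lower in wild-type progenitors than in wild-type myeloid cells. Called or not, 26 of the 28 had a difference below 0, beside 9605 of all 16660 autosomal genes. The gelatinase Mmp9 fell by 0.96 (limma adjusted p = 0.00425), Stfa2 by 0.94 (0.0172) and Padi4, which citrullinates histones, by 0.51 (0.0205). The call for Stfa2 was lost without wild-type array 2 or 3 (limma adjusted p up to 0.0559) and that for Padi4 on leaving out Rheb1-/- array 1 or 3 or wild-type array 3 (up to 0.0613). The count was 12 with normexp, 5 and 7 without wild-type progenitor array 2 and 3, and 1 without wild-type myeloid array 3.

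Of 34 mature neutrophil genes 7 fell and 2 rose (median -0.20, progenitors 3.30 lower). The chemokine Ccl6 fell by 1.36 (limma adjusted p = 0.000646), the interleukin-1 antagonist Il1rn by 1.24 and S100a11 by 0.83, and the 2 that rose were Cd14 and Trem1. Stem and progenitor genes did not shift together. Of 25 measured, 5 rose and 4 fell, their median was -0.07 and their mean 0.03, while progenitors exceeded wild-type myeloid cells by a median of 2.49. Myc, which drives ribosome production, rose 3.87-fold (1.95 ± 0.17 SE, limma adjusted p = 0.000180), from 0.33, 0.43 and 0.31 to 1.94, 2.45 and 2.54. The homeobox genes Hoxa9 and Hoxa7 rose by 1.83 and 1.30 and the stem cell factor receptor Kit by 0.89 (limma adjusted p 0.000450 to 0.00187), and 3 of the 4 that fell moved away from the progenitors.

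**Figure D3:**
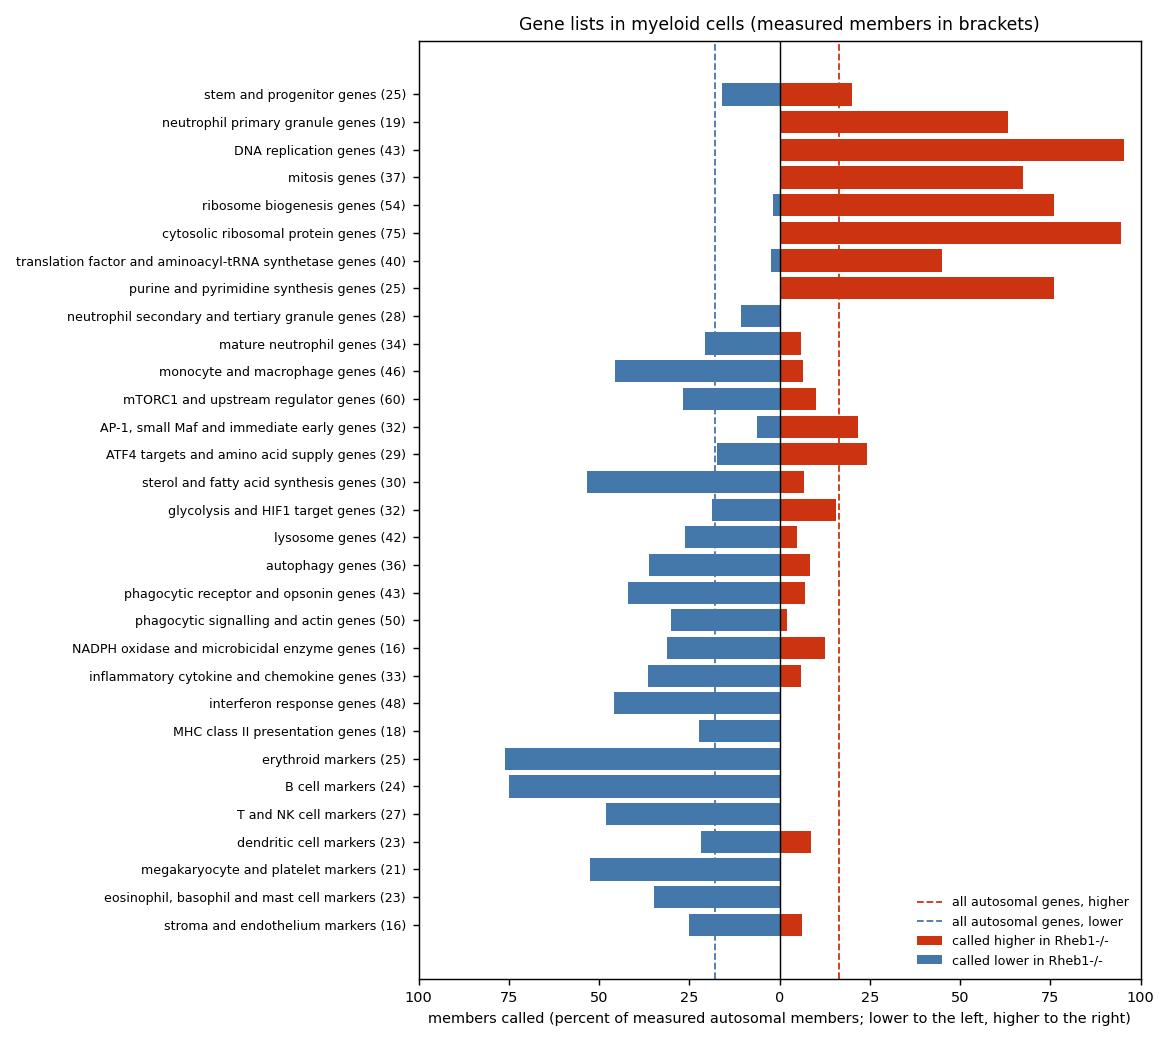
Share of the measured autosomal members of each of the 31 gene lists (y axis) called higher (red, to the right) or lower (blue, to the left) in Rheb1-/- than in wild-type myeloid cells, in percent (x axis). Dashed lines mark the shares over all autosomal genes, 16.4% higher and 17.9% lower.

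Of 60 genes of mTORC1 and its regulators, the pathway around Rheb, 6 rose (10%, beside 16.4% of all autosomal genes) and 16 fell (26.7%, beside 17.9%). Their median difference was -0.16, and that between progenitors and wild-type myeloid cells was -0.02. Grb10, an adaptor that restrains insulin signalling and is a target of mTORC1, rose 3.64-fold (1.87 ± 0.12 SE, limma adjusted p = 7.28e-05), from -4.01, -4.15 and -3.90 to -2.37, -2.17 and -1.92, toward progenitors at 0.42 to 0.60. Sesn3, a stress-induced inhibitor of mTORC1, read -0.77, -0.42 and -0.63 in wild-type and -1.94, -2.23 and -1.98 in Rheb1-/- cells (2.72-fold, -1.44 ± 0.13 SE, limma adjusted p = 0.000210), below all progenitor arrays. Its relative Sesn1 fell by 0.64 (limma adjusted p = 0.00143), away from the progenitors. The arginine sensor homologue Castor2 fell by 1.24 (limma adjusted p = 0.000905), but not as the mean of its probes (0.371). Named after their values were seen, the Rheb inhibitor subunit Tsc1 fell by 0.66 (limma adjusted p = 0.0110) past both cell types, the Rheb homologue Rhebl1 rose by 0.42 (0.0174), and the mTORC1 inhibitor Ddit4 fell by 0.73 (0.0122, slide value -0.38). The calls for Tsc1 and Rhebl1 were lost as the mean over probes (0.138 and 0.326), and that for Rhebl1 also without wild-type array 1 (0.0535) or Rheb1-/- array 2 (0.0547). Another probe of Tsc1 gave 0.15.

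Of 32 AP-1, small Maf and immediate early genes 7 rose (21.9%, near the 16.4% of all autosomal genes), 2 fell and the others did not pass (median 0.44, while progenitors were 0.62 lower than wild-type myeloid cells). The 7 lay in all 3 positions, 3 toward, 3 past and 1 away from the progenitors. Besides Maff, Fosl1, Atf3, Nr4a2 and the phosphatase gene Dusp2 they held, named after their values were seen, Jun, which rose by 1.53 (limma adjusted p = 0.00150), and Nr4a1, which rose by 1.36 away from the progenitors (0.00953). Jun read 0.06, 0.30 and 0.60 in wild-type and 1.58, 1.83 and 2.13 in Rheb1-/- cells, without overlap.

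Sterol synthesis genes fell, and many fell away from the progenitors. Of 30 sterol and fatty acid synthesis genes 16 fell and 2 rose (median -0.47), while progenitors were higher than wild-type myeloid cells by a median of 0.36, and of the 16, 7 lay toward, 1 past and 7 away. The per-array medians were 0.57, 0.39 and 0.33 in wild-type and -0.20, -0.10 and -0.28 in Rheb1-/- myeloid cells, against 1.19 to 1.36 in wild-type progenitors. Idi1, the isopentenyl diphosphate isomerase, read 1.23, 1.42 and 1.19 in wild-type and 0.61, 0.45 and 0.76 in Rheb1-/- cells (-0.67 ± 0.10 SE, limma adjusted p = 0.00120), and progenitors read 1.57 to 1.73. Named after their values were seen, squalene epoxidase (Sqle) fell by 0.97 away from the progenitors and the desaturase Scd1 by 2.18 toward them (limma adjusted p 0.00464 and 0.00510). Msmo1 fell by 0.93 and the acetyl-CoA synthetase gene Acss2 by 1.38. The transcription factor gene Srebf2 fell by 1.05 (limma adjusted p = 0.000646) with the probe used, and another of its 4 probes gave 0.34.

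ATF4 targets and genes of amino acid supply were mixed, with 7 of 29 higher and 5 lower (median 0.14, progenitors 1.14 higher). Phgdh, which starts serine synthesis, rose by 1.04 (limma adjusted p = 0.000424), and Atf4 itself, named after its values were seen, by 0.63 (0.00361). The glycine transporter Slc6a9 fell 4.07-fold (-2.02 ± 0.28 SE, limma adjusted p = 0.000801), and the alanine aminotransferase Gpt2 by 0.54, away from the progenitors (0.000646). Gpt2 was also lower in Rheb1-/- progenitors (-0.71, limma adjusted p = 0.00645). Slc7a1, an arginine transporter, rose by 0.67, but its other probe gave -0.14 and the mean did not pass (limma adjusted p = 0.0815). Of 32 glycolysis and HIF1 target genes 5 rose and 6 fell (median -0.04), among them Pdk1, which holds pyruvate out of mitochondria, at 1.01 and Vegfa at 0.80 higher, and Aldoc at -1.38 and Pfkfb4 at -0.66.

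Most lysosome and autophagy genes that changed were lower. Of 42 lysosome genes 11 fell and 2 rose (median -0.25, progenitors 0.41 lower), and of the 11 that fell 10 lay toward the progenitors. The per-array median level of the list was higher, 3.47 to 3.64 in Rheb1-/- against 3.12 to 3.33 in wild-type myeloid cells. The log2 of the signal summed over members was lower, 9.916 to 10.053 against 10.133 to 10.315. The proton pump subunit Atp6v0a1 fell by 0.80 (limma adjusted p = 0.00497), the cholesterol exporter Npc1 by 0.59 (0.00304) and the acid lipase Lipa by 0.61 (0.00658), the last 2 not as the mean of their probes (0.731 and 0.132). The number that fell was 6 without Rheb1-/- array 3. Against this, Ctsl rose 2.63-fold (1.40 ± 0.10 SE, limma adjusted p = 7.30e-05), past both cell types. It read 2.54, 2.51 and 2.63 in wild-type, 3.76, 3.99 and 4.11 in Rheb1-/- myeloid cells, and 2.36 to 2.56 on all 6 progenitor arrays, and its slide value was 0.01. Of 36 autophagy genes 13 fell and 3 rose (median -0.23), 12 of the 13 toward the progenitors, with 8 falling when wild-type array 1 was left out. Gabarapl2 fell by 1.03, the mitophagy receptor Bnip3l by 0.68, Map1lc3b by 0.52 and Atg4c by 0.50 (limma adjusted p 0.00165 to 0.00471).

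Genes of macrophages and of uptake were lower. Of 46 monocyte and macrophage genes 21 fell and 3 rose (median -0.51, progenitors 2.60 lower), and all 21 fell toward the progenitors. Cd163, the haemoglobin scavenger receptor, read -0.89, -0.50 and -0.62 in wild-type and -2.08, -4.23 and -3.20 in Rheb1-/- cells (5.65-fold, -2.50 ± 0.46 SE, limma adjusted p = 0.00312). The receptor tyrosine kinase Axl, which binds dying cells through Gas6, fell by 1.74 and Gas6 by 1.76 (limma adjusted p = 0.00358 and 0.00247, slide value of Gas6 -0.94), and the transcription factor Maf by 0.63 (0.00106). Named after their values were seen, the complement gene C1qa fell by 1.71 and the sialic acid receptor of marrow macrophages Siglec1 by 1.86 (limma adjusted p = 0.0152 and 0.00969). Vcam1 rose by 0.94 (limma adjusted p = 0.000912), toward the progenitors. In bulk RNA, fewer macrophages and less RNA of these genes per cell cannot be told apart.

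Of 43 phagocytic receptor and opsonin genes 18 fell and 3 rose (median -0.50, progenitors 2.38 lower). The 3 that rose included Clu and the complement component C4b, which read -3.22, -3.90 and -3.97 in wild-type and -1.86, -0.50 and -0.59 in Rheb1-/- myeloid cells (6.55-fold, limma adjusted p = 0.000912). C4b rose in Rheb1-/- progenitors too (2.95, limma adjusted p = 0.0344). Of 50 genes of phagocytic signalling and actin 15 fell and 1 rose (median -0.19, progenitors 1.14 lower, 23 lower with normexp), among them Capg, which caps actin, by 0.77, Myo1f by 0.72 and the Arp2/3 subunit Arpc5 by 0.64 (limma adjusted p 0.000907 to 0.00192). Myo10 fell by 1.19, away from the progenitors, with another of its probes at 0.23. Of 16 NADPH oxidase and microbicidal enzyme genes 5 fell and 2 rose (median -0.14). The oxidase subunits Cyba and Ncf1 fell by 0.62 and 0.57 and the metal transporter Slc11a1 by 1.08 (limma adjusted p = 0.00432, 0.00597 and 0.00534, slide value of Slc11a1 -0.57). Catalase (Cat) fell past both cell types, from 1.65, 1.86 and 1.54 to 0.87, 0.43 and 0.98, against 1.52 to 1.69 in wild-type progenitors (-0.92 ± 0.14 SE, limma adjusted p = 0.00135).

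Interferon response genes fell without exception among those called, 22 of 48 (median -0.61, progenitors 2.00 lower). Rsad2, an antiviral enzyme, read 3.34, 4.08 and 3.92 in wild-type and 2.27, 0.77 and 1.69 in Rheb1-/- cells (4.61-fold, -2.20 ± 0.37 SE, limma adjusted p = 0.00211). Oasl2 fell by 1.81, Isg20 by 1.49 and Rtp4 by 1.36 (limma adjusted p 0.000376 to 0.00493). The number called dropped to 14 and 12 on omission of wild-type array 1 and Rheb1-/- array 2. Of 33 inflammatory cytokine and chemokine genes 12 fell and 2 rose (median -0.25, 7 and 6 lower without Rheb1-/- array 2 and 3), with Traf1 at -1.06, Il18 at -0.94 and Ccl24 at -0.88. Of 18 MHC class II presentation genes 4 fell (median -0.48), 8 when Rheb1-/- array 1 was left out, and 2 when array 2 or 3 of that group or wild-type array 2 was left out. H2-DMb2 fell by 0.96 (limma adjusted p = 0.00216). H2-Ob, not well above background on any Rheb1-/- array, fell at least 3.02-fold with the main processing. Its log2 difference ran from -2.74 to -0.32 over the alternatives. The call for H2-Ob was lost with normexp (limma adjusted p = 0.0597). H2-Oa fell by 0.68 and the co-stimulator Cd40 by 0.71 (limma adjusted p = 0.0260 and 0.0337). Both calls were lost when array 2 of either group or Rheb1-/- array 3 was left out, and also without wild-type array 3 for H2-Oa and array 1 for Cd40 (limma adjusted p up to 0.0880 and 0.114).

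Markers of most other cells of the marrow were lower in Rheb1-/- myeloid cells and moved with the falls above, and their part in those falls was not tested. Dendritic cell markers and those of stroma and endothelium, below, were less uniform. A marker could pass the filter on dim genes through its signal in wild-type myeloid cells alone. Of 25 erythroid markers 19 fell and none rose (median -1.90). Their summed signal, as log2 of the sum over members, was 10.51 to 10.97 in wild-type and 8.36 to 10.07 in Rheb1-/- myeloid cells, and every member was well above background on at least 1 array of each group. The haemoglobin gene Hba-a1, named after its values were seen, read 9.36, 9.84 and 10.02 in wild-type myeloid cells and 8.66, 6.55 and 7.92 in Rheb1-/- cells (-2.03, limma adjusted p = 0.0532). Rhd, Hemgn and Epor fell by 2.36, 1.97 and 1.90 (limma adjusted p 0.00167 to 0.00285). Rheb1-/- array 2 was the lowest and array 1 the highest of the 3 for each of these 4 genes.

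Of 24 B cell markers 18 fell and none rose (median -1.54), the summed signal being 6.23 to 6.98 in wild-type and 5.06 to 5.48 in Rheb1-/- cells, with 1 member not well above background on any Rheb1-/- array. The heavy chain gene Ighm averaged 5.76 ± 0.26 in wild-type and 4.47 ± 0.19 in Rheb1-/- cells (SD, n = 3 each, a difference of -1.29, limma adjusted p = 0.000936), and Cd22 fell by 1.98, Cd79a by 1.55 and Fcer2a by 3.36. Of 27 T and NK cell markers 13 fell (median -0.91, summed signal 2.62 to 3.09 against 1.52 to 2.04, 2 members not well above background on any Rheb1-/- array). Well above background on all 6 myeloid cell arrays were 21 of them. When only genes well above background on all 12 arrays were kept, 6 members fell. The list median ran from -1.03 to -0.31 over the alternatives. Cd3d fell by 2.87, Lck by 1.46, Zap70 by 0.92 and Cd3g, with the main processing, at least 2.42-fold. Over the alternatives the log2 difference ran from -1.89 to -0.31 for Cd3g and from -1.03 to -0.31 for Zap70. Of 23 dendritic cell markers 5 fell (21.7%, near the 17.9% of all autosomal genes) and 2 rose (median -0.62). Their summed signal was 5.64 to 5.82 against 5.47 to 5.71, so the ranges overlapped, and 1 member was not well above background on any Rheb1-/- array. Zbtb46 fell by 1.47 and Ccr9 by 1.14, and Lair1 rose by 0.74 and Runx2 by 0.39. As the mean over probes Zbtb46 and Runx2 did not pass (limma adjusted p = 0.887 and 0.169).

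Members also fell in 2 lists whose median was higher in wild-type progenitors than in wild-type myeloid cells. Of 21 megakaryocyte and platelet markers 11 fell and none rose (median -0.96), although progenitors exceeded wild-type myeloid cells by a median of 1.55. Of the 11, 5 moved away from the progenitors and 5 toward them. Their summed signal was 6.32 to 6.45 in wild-type and 5.72 to 5.94 in Rheb1-/- myeloid cells, and 5.60 to 6.12 in wild-type progenitors. In Rheb1-/- myeloid cells 4 members were not well above background on any array. The platelet chemokine Ppbp fell by 2.20, Clec1b by 1.08, Nbeal2 by 1.03 and Gp1bb by 0.96 (limma adjusted p 0.00192 to 0.0100), and the median genotype difference of the list was -1.35 in progenitors. Leaving out array 2 of either group gave a count of 6, and leaving out wild-type array 3 gave 7. Of 23 eosinophil, basophil and mast cell markers 8 fell and none rose (median -1.19, progenitors 2.73 higher), 4 of them away from the progenitors. Their summed signal was 7.44 to 8.14 in wild-type and 6.73 to 7.65 in Rheb1-/- cells, so the ranges overlapped, and every member was well above background on some array of each group. The eotaxin receptor Ccr3 fell by 2.21, the mast cell protease Cpa3 by 1.50 and the chymase Cma1 by 1.13 (limma adjusted p = 0.00304, 0.0138 and 0.00383). The call for Cpa3 was lost without Rheb1-/- array 3 (0.0508), and the list's count was 5 without any 1 of the wild-type arrays and 15, 4 and 3 without Rheb1-/- array 1, 2 and 3.

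Of 16 stroma and endothelium markers 4 fell and 1 rose (median -0.49, 0 to 5 lower over the alternatives), while their summed signal was 3.28 to 3.34 in wild-type and 3.80 to 4.07 in Rheb1-/- cells, the rise of Vcam1 included, and 2 members were not well above background on any Rheb1-/- array. The collagen gene Col6a3, not well above background on any Rheb1-/- array, fell at least 5.08-fold with the main processing. Its wild-type array 1 at -5.05 lay below the others at -2.36 and -2.32. The log2 difference of Col6a3 ran from -5.32 to -1.19 over the alternatives. The chemokine Cxcl12 of marrow stroma fell by 1.75 (limma adjusted p = 0.00588). The receptor gene Tek fell by 1.07 (limma adjusted p = 0.0228) but its groups overlapped. The call was lost in 9 of 22 alternatives (limma adjusted p up to 0.162). Among them were normexp, quantile normalization, the deposited values, the mean of probes, the 6 arrays alone and array weights. The others were the omission of wild-type array 1 or 3 or Rheb1-/- array 3 (limma adjusted p up to 0.0815).

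**Figure D4:**
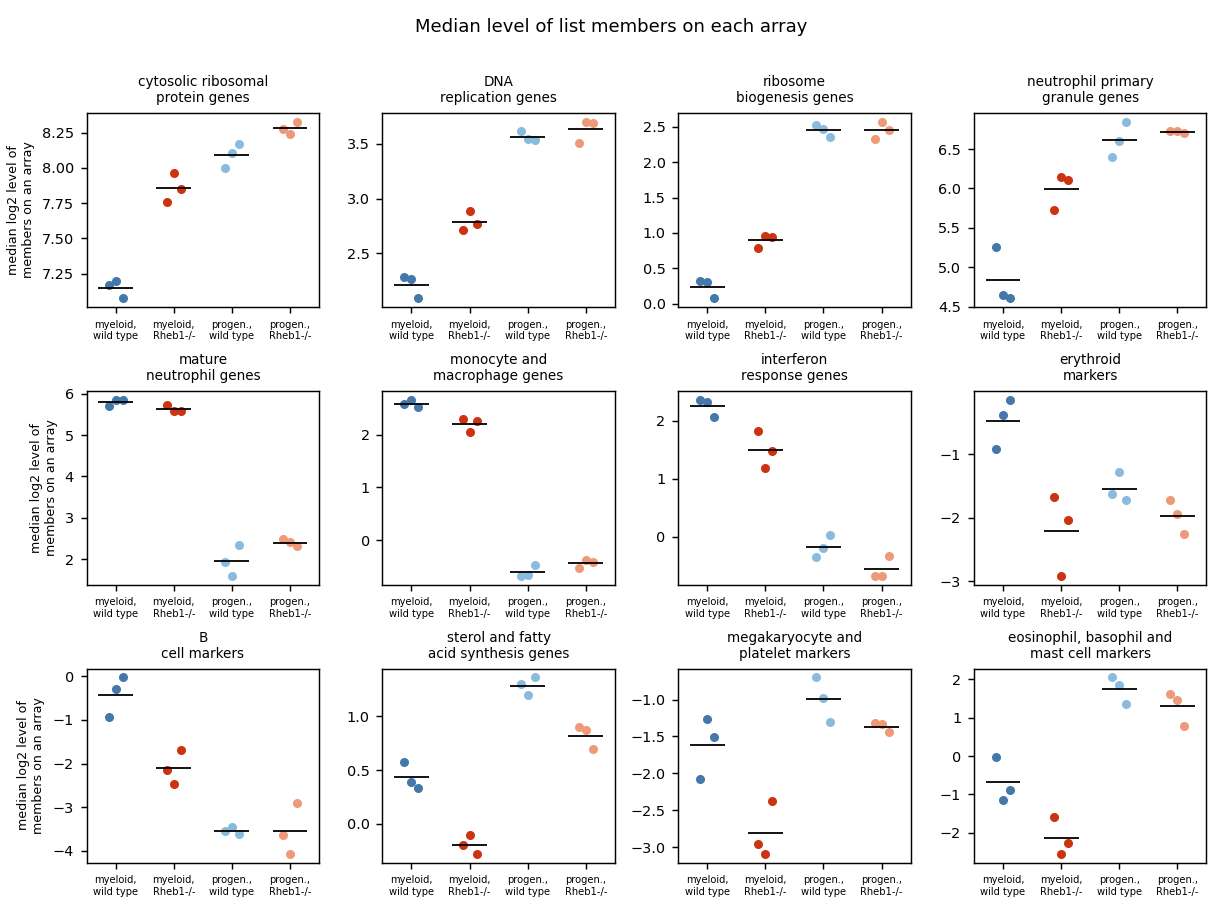
Median level of the measured members of 12 lists (y axis, log2 signal minus the 75th percentile, each panel on its own scale) on every array of the 4 groups (x axis; progen. stands for myeloid progenitors); points are arrays and lines group means. Ribosomal protein, replication, biogenesis and primary granule genes of Rheb1-/- myeloid cells lie between wild-type myeloid cells and progenitors, whereas sterol synthesis, megakaryocyte and eosinophil, basophil and mast cell lists lie below wild-type myeloid cells and wild-type progenitors.

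In progenitors 12 of 16660 autosomal genes passed between genotypes (0.0720%), 9 higher (0.0540%) and 3 lower (0.0180%). The targeted gene Rheb was not among them, at -1.08 (limma adjusted p = 0.0939). So the low count does not show that few genes changed there. The difference between the genotype effects in myeloid cells and in progenitors passed in 1820 autosomal genes (10.9%), 920 higher (5.52%) and 900 lower (5.40%) in myeloid cells. Of 160 genes named here 75 were among them, 49 of them with the higher genotype difference in myeloid cells. Most were named for their myeloid genotype difference, which this contrast contains, so that share follows in part from the naming. The count was 886 to 1154 when any of 9 of the 12 arrays was left out, and changed less without wild-type progenitor array 3 or without array 1 of either myeloid cell group. Lists differed in this respect. Of 43 DNA replication genes 28 had a larger rise in myeloid cells, of 75 ribosomal protein genes 32, and of 54 ribosome biogenesis genes 19, with median genotype differences in progenitors of -0.02, 0.18 and 0.07. Of the 30 sterol synthesis genes the difference passed in 2, 1 in each direction, and their median genotype difference was -0.36 in progenitors and -0.47 in myeloid cells.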

How the data were processed

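Scanner files of 14 single-colour arrays were used. Their spot intensity is the processed signal, background-subtracted and detrended by Agilent Feature Extraction, per the file headers, which name version 10.7.3.1, while the submitters' processing notes name 9.1. The log2 values in the authors' deposited value matrix, quantile normalized as its sorted columns differed by at most 0.0023, served as an alternative. Controls and 79 to 195 outlier spots per array were left out. Each probe's log2 signal minus the array's 75th percentile was used, and the brightest of a gene's probes stood for it. Gene names came from a RefSeq gene list of GRCm38.p6, and probe coordinates are those of the files (mm9).

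Genes that exceeded background on every array of 1 or more of 4 groups, with values on at least 2 arrays of each, were fitted in limma 3.58.1 (R 4.3.3, statmod 1.5.0, data.table of version 1.17.8), with 1 mean per group over 12 arrays. P-values were adjusted (Benjamini-Hochberg) over all 17713 genes and genes called under 0.05, two-sided. Fold bounds set the higher group against the lowest well-measured signal, with the main processing only, and were not tested themselves. Members, lists and tests were chosen with earlier results of these data known. Named are Rheb, the 5 largest rises and 5 largest falls in each position among called genes with an official symbol, no overlap and signal above background on all 6 myeloid cell arrays, and up to 4 called members of each list with the smallest p (142 genes, some others that the rule takes being not reported here), and 18 more were named after their values were seen. Same-numbered arrays of the 2 myeloid cell groups did not deviate together (correlations -0.10, -0.06 and -0.15). Alternatives were normexp (offset 50), the deposited values, quantile normalization, mean of probes, other filters, replicate or slide blocks, array weights, a robust prior, a 2-fold minimum, the 6 arrays alone and each array left out. The stem cell arrays are not analysed here.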

Additional observations from a re-analysis of the deposited data

Results flagged for a closer look

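The genotype difference in myeloid cells differed from that in progenitors, by limma's test of the difference itself, in 75 of the 160 named genes (adjusted p 0.00366 to 0.0489). Most genes were named for their myeloid genotype difference, which this test contains, so the share follows in part from the naming. Values below are the myeloid genotype difference minus the progenitor one, on the log2 scale, n = 3 arrays per group. Among genes of the largest shifts these were Maff 3.66, Myl10 3.41, Ppic 1.91, Tmem45a2 -2.51, Dmpk -2.76, Lhx1 -3.23, Fosl1 3.37, Commd10 1.17, Atf3 2.76, Gpd1 -2.22, Cd5l -2.44, Plaat3 -1.66, Ablim1 -2.08 and Csrnp1 1.50. Among stem, progenitor and primary granule genes they were Myc 1.52, Kit 0.67, Hoxa7 1.31, Hoxa9 1.65, Prss57 1.06, Ctsg 1.24, Srgn 0.66 and Nkg7 1.20. For replication and mitosis they were Cdt1 0.64, Mcm6 0.85, Uhrf1 0.65, Mcm3 0.73, Ect2 0.79, Bub1 0.90, Cenpf 1.18 and Aurka 0.85. For ribosome and translation genes the values were Nop58 1.02, Npm1 0.93, Nop56 0.76, Rrs1 0.90, Rps7 0.85, Rpl31 0.73, Eef1b2 0.86, Eif3b 0.76, Eif3e 0.60 and Eef1g 0.58. Nucleotide, amino acid and glycolysis genes gave Ppat 0.77, Ctps 0.87, Uck2 0.97, Cad 0.91, Phgdh 0.91, Slc6a9 -1.64, Slc7a1 0.62 and Pdk1 0.84. Genes of granulocyte and macrophage maturation, lysosome, autophagy, oxidases and inflammation gave Padi4 -0.74, S100a11 -0.71, Vcam1 0.94, Maf -0.76, Ctsl 1.27, Npc1 -0.57, Bnip3l -0.70, Atg4c -0.58, Cat -0.94, Traf1 -1.61 and Isg20 -1.51. Among mTORC1 regulators and immediate early genes the values were Grb10 1.79 and Nr4a2 1.98. Markers of lymphoid, dendritic and stromal cells gave Fcer2a -3.73, Cd79a -1.82, Cd22 -1.96, Cd3d -1.92, Zap70 -1.44, Lck -1.33, Lair1 0.77, Zbtb46 -2.09, Ccr9 -1.47 and Col6a3 -5.15. Genes named after their values were seen gave Jun 2.07, Elane 1.02, Mki67 0.72 and Atf4 0.99. Slide and genotype cannot be told apart on the myeloid cell arrays of these results. Groups of 3 arrays were not searched for outlying values, and limma's array weights ran from 0.612 to 2.74 over the 6 myeloid cell arrays.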

How the results depend on the processing

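Higher, lower, toward and past counts, the last over both directions, stayed within 1.5 times under every alternative run except the 2-fold minimum (386 higher, 912 lower). By direction, genes that fell past both cell types numbered 136 and those that fell away 156 with normexp, against 246 and 274. Genes placed away numbered 217 without the filter on dim probes and 608 with slide as a random block, and the difference between cell types 748 without the filter, against 360 and 1820. The cause was not tested. The fitted correlation within slides was -0.12. The slide block cannot separate slide from genotype, as each myeloid cell group lay on its own slide. Leaving out 1 array gave 2112 to 2680 higher and 2126 to 3025 lower genes, 3605 to 4649 toward, 237 to 394 past, 194 to 376 away and 886 to 2057 for the difference. List members called numbered 521, and 424 to 530 with 1 array left out. The replicate numbers did not pair the samples: with the replicate number as a block 2578 genes were higher, 2791 lower, 4451 toward, 300 past, 362 away and 1264 in the difference, with 506 list members called and Rheb at -0.89. The stem and progenitor median of -0.07 turned to 0.027 with normexp and 0.014 with quantile normalization or the deposited values, and ran from -0.20 to 0.026 with 1 array left out, above 0 without wild-type myeloid array 3 (0.014) or Rheb1-/- myeloid array 3 (0.026). Rheb passed in all 23 alternatives. Depth cannot be stated for arrays, and dim probes are less precise.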
